A study of Mus musculus with 9 samples.

Results

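The 10 genes described here are ligands and receptors of the tumour necrosis factor (TNF) superfamily, measured by poly-A RNA sequencing in whole mouse colon. The ligands were Tnf, Ltb, Tnfsf11, Tnfsf10 and Tnfsf15, and the receptors Tnfrsf1a, Tnfrsf1b, Ltbr, Tnfrsf11b and Fas. They were taken by symbol from the 21959 genes of the deposited table. All 10 were in it, and all 10 were among the 14921 genes that passed the expression filter and were tested. Genotype was WT in all mice. The CDs group received dextran sulfate sodium (DSS), a polymer that injures the colon lining and is used to model ulcerative colitis, together with carbon dots, which are nanometre-sized carbon particles, made from lotus node charcoal. The Model group received DSS, and the Blank group no treatment. Each group had 3 libraries, described by the submitters as biological replicates. The sources used here give no strain, age, sex, dose, schedule or segment of colon.

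TNF superfamily ligands are made as membrane proteins, some of which are released by proteases, and they bind as trimers to receptors on the same or other cells. Receptors such as Tnfrsf1a and Fas carry a death domain and can lead to cell death, whereas Tnfrsf1b and Ltbr bind TRAF adaptors that activate NF-kB. Soluble receptors such as osteoprotegerin, the product of Tnfrsf11b, bind ligands and keep them from signalling. In the intestine, TNF is a target of antibody therapy in inflammatory bowel disease, and lymphotoxin and RANKL, the product of Tnfsf11, take part in forming lymphoid tissue.

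Libraries held 13868864 to 19940300 counted reads. Levels of a gene are given as CPM, its read count scaled to the TMM-scaled total of the library, and 3 reads were worth 0.142 to 0.221 CPM, a counting limit only. All 8 colon epithelium markers had reads in every group, with summed levels of 8096 to 16737 CPM in CDs, 8338 to 16046 CPM in Model and 14108 to 23230 CPM in Blank. Some libraries held transcripts of other organs. Pancreatic acinar markers summed to 226 CPM in CDs 1, 6170 CPM in Model 1 and 52520 CPM in Model 3, and to at most 1.10 CPM in any other library. The prostate gene Tgm4 reached 602.5 CPM in Blank 2 and 56.4 CPM in Blank 3, against 2.19 CPM in Blank 1. Calls among the 10 genes that change without these libraries are given beside their values.

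DSS-treated colon had more transcript of 7 of the 10 genes than untreated colon, and 0 were called lower. In Model versus Blank, Tnf, Ltb, Tnfsf11, Tnfrsf1a, Tnfrsf1b, Tnfrsf11b and Fas rose (edgeR quasi-likelihood test, Benjamini-Hochberg adjusted p under 0.05 over all genes tested), while Ltbr, Tnfsf10 and Tnfsf15 were not called. Among all genes tested 24.5% were called higher and 19.6% lower (44.1% either way), so a call alone is common in this comparison. The 3 Model libraries were all above the 3 Blank libraries for 8 of the 10 genes, beside 30% of all genes tested. The median log2 fold change of the 10 genes was 1.37, against -0.03 over all genes tested. Without Blank 2 and Blank 3, the libraries with prostate transcript, 2 of the 10 were still called, Tnfrsf1a (log2 fold change 1.25) and Fas (0.95). In that fit Blank 1 alone stood for untreated colon and was assumed to vary like the other groups. Blank 1 was the highest Blank library for 9 of the 10 genes, the 7 among them. Calls over all genes were also fewer in that fit, and the fold change of each of the 7 genes was smaller than with all libraries. The cause of the lost calls was not tested. All 7 genes kept a positive fold change.

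**Figure D1:**
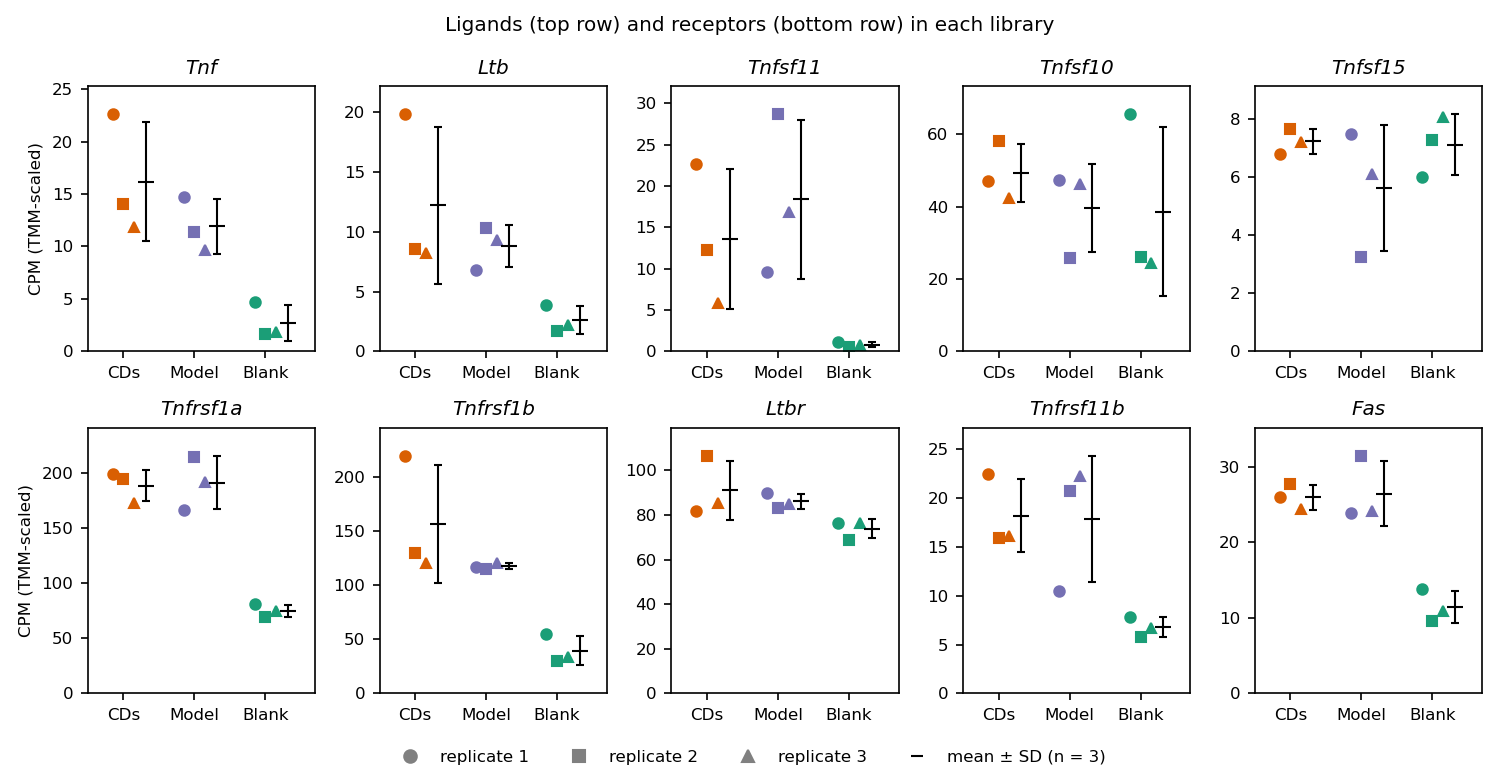
CPM (TMM-scaled, linear axes from 0) of the 5 ligands (top row) and 5 receptors (bottom row) in each library of CDs, Model and Blank; symbols mark replicates and bars the mean ± SD (n = 3). For 8 genes, all but Tnfsf10 and Tnfsf15, every CDs and Model library lies above every Blank library, while CDs and Model libraries overlap for all 10.

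Among the ligands, the 3 that rose are shown with the sequence around their transcription start, since they are the ligands whose transcript level changed. The windows run from 250 bases before to 50 bases after the start on the gene's own strand (RefSeq, GRCm38.p6). They lie at chr17:35201958-35202257 (minus strand) for Tnf, chr17:35194257-35194556 (plus strand) for Ltb and chr14:78307994-78308293 (minus strand) for Tnfsf11. Capitals mark matches, on either strand, to the letters TATAAA in Tnf and Tnfsf11 and to the NF-kB consensus in Ltb.
Tnf: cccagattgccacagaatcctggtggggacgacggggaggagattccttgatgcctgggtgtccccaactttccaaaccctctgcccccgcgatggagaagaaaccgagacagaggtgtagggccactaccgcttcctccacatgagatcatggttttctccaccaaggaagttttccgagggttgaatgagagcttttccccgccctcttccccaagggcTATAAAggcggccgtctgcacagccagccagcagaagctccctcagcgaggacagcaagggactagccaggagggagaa
Ltb: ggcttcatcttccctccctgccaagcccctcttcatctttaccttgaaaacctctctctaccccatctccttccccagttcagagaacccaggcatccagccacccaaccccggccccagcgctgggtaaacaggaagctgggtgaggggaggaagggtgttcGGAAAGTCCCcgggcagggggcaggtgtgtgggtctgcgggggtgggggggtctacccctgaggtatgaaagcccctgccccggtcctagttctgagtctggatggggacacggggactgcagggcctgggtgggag
Tnfsf11: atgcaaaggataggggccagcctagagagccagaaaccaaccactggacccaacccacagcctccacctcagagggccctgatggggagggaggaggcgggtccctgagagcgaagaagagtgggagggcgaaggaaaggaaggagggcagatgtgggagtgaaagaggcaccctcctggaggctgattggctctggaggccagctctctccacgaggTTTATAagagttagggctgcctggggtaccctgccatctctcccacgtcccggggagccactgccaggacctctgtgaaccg
Of the 10 genes 9 had such a window in the table. TATAAA was found in 2 of the 9, with its first base at -29 from the start in Tnf and at -32, on the other strand, in Tnfsf11, and in 13.6% of 32851 windows of all genes. The NF-kB consensus was searched as GGGRNNYYCC, where R is A or G, Y is C or T and N is any base. It was found in 1 of the 9, at -87 on the other strand in Ltb, and in 8.46% of all windows. Other forms of this motif were not searched. The letters TGANTCA, an AP-1 motif, were found in 1 of the 9, at -211 in Fas, and in 7.81% of all windows. The motifs do not overlap each other in these windows, and a match describes letters, not a site.

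Tnf, the cytokine that gives the family its name, was at 22.6, 14.1 and 11.8 CPM in the CDs libraries, at 14.7, 11.3 and 9.65 CPM in the Model libraries and at 4.69, 1.65 and 1.84 CPM in the Blank libraries (replicates 1, 2 and 3 in each group). Every DSS-treated library was thus above every untreated one, and CDs and Model overlapped. Tnf (ENSMUSG00000024401, chromosome 17, 35418357 to 35420983, minus strand, in the deposited table) averaged 11.9 ± 2.59 CPM in Model and 2.73 ± 1.71 CPM in Blank (SD, n = 3 each), a 4.32-fold difference. Its log2 fold change was 2.11 ± 0.42 (SE; edgeR adjusted p = 0.00436), and 1.34 with an adjusted p of 0.0962 without Blank 2 and Blank 3.

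Ltb, lymphotoxin beta, which anchors lymphotoxin alpha at the cell membrane, was at 19.8, 8.61 and 8.23 CPM in CDs, 6.83, 10.3 and 9.32 CPM in Model and 3.92, 1.71 and 2.21 CPM in Blank. CDs 1 stood well above the other 5 DSS-treated libraries, which lay between 6.83 and 10.3 CPM, and all were above Blank. In Model versus Blank the log2 fold change of Ltb (ENSMUSG00000024399, chromosome 17, 35413415 to 35415296, plus strand) was 1.75 ± 0.43 (edgeR adjusted p = 0.0111), or 3.35-fold, and 1.17 with an adjusted p of 0.216 without Blank 2 and Blank 3. Ltb and Tnf are neighbours, with 3060 bases between their ends in the deposited coordinates. On the other side, 1157 bases from Tnf, lies Lta, lymphotoxin alpha, the soluble partner of Ltb. Lta had means of 1.94 CPM in CDs, 1.26 CPM in Model and 0.272 CPM in Blank, and rose in Model by 2.17 ± 0.52 on the log2 scale (edgeR adjusted p = 0.00997). Its Blank values rest on 4, 6 and 2 reads, and without Blank 2 and Blank 3 its adjusted p was 0.114. Lta was named after its values were seen. The 3 neighbours were thus all called higher in Model, and none of them without Blank 2 and Blank 3.

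Tnfsf11, which encodes RANKL, the ligand that drives osteoclast formation in bone and M cell and lymphoid development in the gut, had the largest fold change of the 10 genes. It was at 22.7, 12.3 and 5.88 CPM in CDs, 9.59, 28.7 and 16.9 CPM in Model and 1.16, 0.549 and 0.738 CPM in Blank. The Blank values rest on 18, 8 and 10 reads, against 132, 604 and 252 reads in the Model libraries. Values within each DSS-treated group spanned a wide range, from Model 1 to Model 2 and from CDs 3 to CDs 1, but none came near Blank. Between Model and Blank the log2 fold change of Tnfsf11 (ENSMUSG00000022015, chromosome 14, 78514885 to 78545483, minus strand) was 4.48 ± 0.64 (edgeR adjusted p = 0.00103), or 22.3-fold with a 95% interval of 8.16-fold to 60.97-fold. Without Blank 2 and Blank 3 it was 3.99 with an adjusted p of 0.0619.

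Tnfsf10, which encodes TRAIL, a ligand of death receptors, did not pass the test. It was at 47.1, 58.1 and 42.5 CPM in CDs, 47.3, 25.7 and 46.1 CPM in Model and 65.5, 26.1 and 24.4 CPM in Blank. Blank 1 was the highest of all 9 libraries, so the groups overlapped fully. The log2 fold change of Tnfsf10 (ENSMUSG00000039304, chromosome 3, 27371177 to 27396576, plus strand) in Model versus Blank was 0.04 ± 0.39 (edgeR adjusted p = 0.949), with a 95% interval of -0.84 to 0.91. Its sign changed with the libraries kept: it was 0.66 without Blank 1 and -0.72 without Blank 2 and Blank 3. In CDs versus Blank, Tnfsf10 was called higher only in the fit without Blank 1 (log2 fold change 0.97, edgeR adjusted p = 0.0345).

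Tnfsf15, which encodes TL1A, a T cell costimulatory ligand whose human gene lies in a susceptibility locus of inflammatory bowel disease, had the lowest level per length of the 10 genes in DSS-treated colon. It was at 6.78, 7.65 and 7.20 CPM in CDs, 7.48, 3.23 and 6.10 CPM in Model and 5.98, 7.27 and 8.04 CPM in Blank. Model 2 alone was low, and the other 8 libraries lay between 5.98 and 8.04 CPM. The log2 fold change of Tnfsf15 (ENSMUSG00000050395, chromosome 4, 63642840 to 63663350, minus strand) in Model versus Blank was -0.35 ± 0.28 (edgeR adjusted p = 0.336). With Model 2 as the only Model library, in the fit without the libraries with pancreatic transcripts, it was -1.14 (edgeR adjusted p = 0.0139).

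Among the receptors, Tnfrsf1a had the smallest adjusted p in Model versus Blank. It encodes the widely expressed TNF receptor that signals both inflammation and cell death. It was at 199, 194 and 173 CPM in CDs, 167, 214 and 192 CPM in Model and 80.6, 69.5 and 74.7 CPM in Blank. The lowest DSS-treated library was more than double the highest Blank library. Tnfrsf1a (ENSMUSG00000030341, chromosome 6, 125326325 to 125339447, plus strand) was higher in Model than in Blank by 1.35 ± 0.12 on the log2 scale (edgeR adjusted p = 2.62e-04), a 2.55-fold difference. It was between 1.25 and 1.51 in all 18 alternative fits and called in each.

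Tnfrsf1b encodes the second TNF receptor, found mainly on immune and endothelial cells and lacking a death domain. It was at 219, 130 and 120 CPM in CDs, 117, 115 and 120 CPM in Model and 54.7, 29.6 and 33.7 CPM in Blank. The 3 Model libraries were almost equal, while CDs 1 was far above every other library and Blank 1 above the other Blank libraries. Tnfrsf1b (ENSMUSG00000028599, chromosome 4, 144940033 to 144973440, minus strand) was higher in Model than in Blank by 1.58 ± 0.28 on the log2 scale (edgeR adjusted p = 0.00254), and 1.11 with an adjusted p of 0.0871 without Blank 2 and Blank 3.

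Tnfrsf11b encodes osteoprotegerin, the soluble decoy receptor of RANKL and TRAIL. It was at 22.5, 16.0 and 16.1 CPM in CDs, 10.5, 20.7 and 22.3 CPM in Model and 7.84, 5.83 and 6.71 CPM in Blank. Model 1 lay closest to Blank, without overlap. Relative to Blank, Tnfrsf11b (ENSMUSG00000063727, chromosome 15, 54114015 to 54141880, minus strand) rose in Model by 1.39 ± 0.29 on the log2 scale (edgeR adjusted p = 0.00538), and 1.19 with an adjusted p of 0.138 without Blank 2 and Blank 3.

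Fas, the death receptor for Fas ligand, was at 25.9, 27.6 and 24.3 CPM in CDs, 23.9, 31.3 and 24.1 CPM in Model and 13.8, 9.53 and 10.9 CPM in Blank. The DSS-treated libraries formed a narrow band above Blank. For Fas (ENSMUSG00000024778, chromosome 19, 34268066 to 34305172, plus strand) the log2 fold change between Model and Blank was 1.21 ± 0.17 (edgeR adjusted p = 9.48e-04). Its ligand gene Fasl, not one of the 10, had means of 1.55 CPM in CDs, 1.29 CPM in Model and 0.548 CPM in Blank and was not called in Model versus Blank (log2 fold change 1.18 ± 0.69, edgeR adjusted p = 0.192).

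Ltbr, the receptor for membrane lymphotoxin and for LIGHT, differed least among the receptors. It was at 81.7, 106 and 85.6 CPM in CDs, 89.9, 83.3 and 85.0 CPM in Model and 76.5, 68.9 and 76.2 CPM in Blank. Every DSS-treated library was above every Blank library, by a small margin. The log2 fold change of Ltbr (ENSMUSG00000030339, chromosome 6, 125283534 to 125290848, minus strand) in Model versus Blank was 0.22 ± 0.11 (edgeR adjusted p = 0.135), with a 95% interval of -0.03 to 0.47. In CDs versus Blank it was 0.30 ± 0.11 (edgeR adjusted p = 0.0612), and the gene was called there in 3 alternative fits, among them the fit without CDs 1 (adjusted p = 0.0338).

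**Figure D2:**
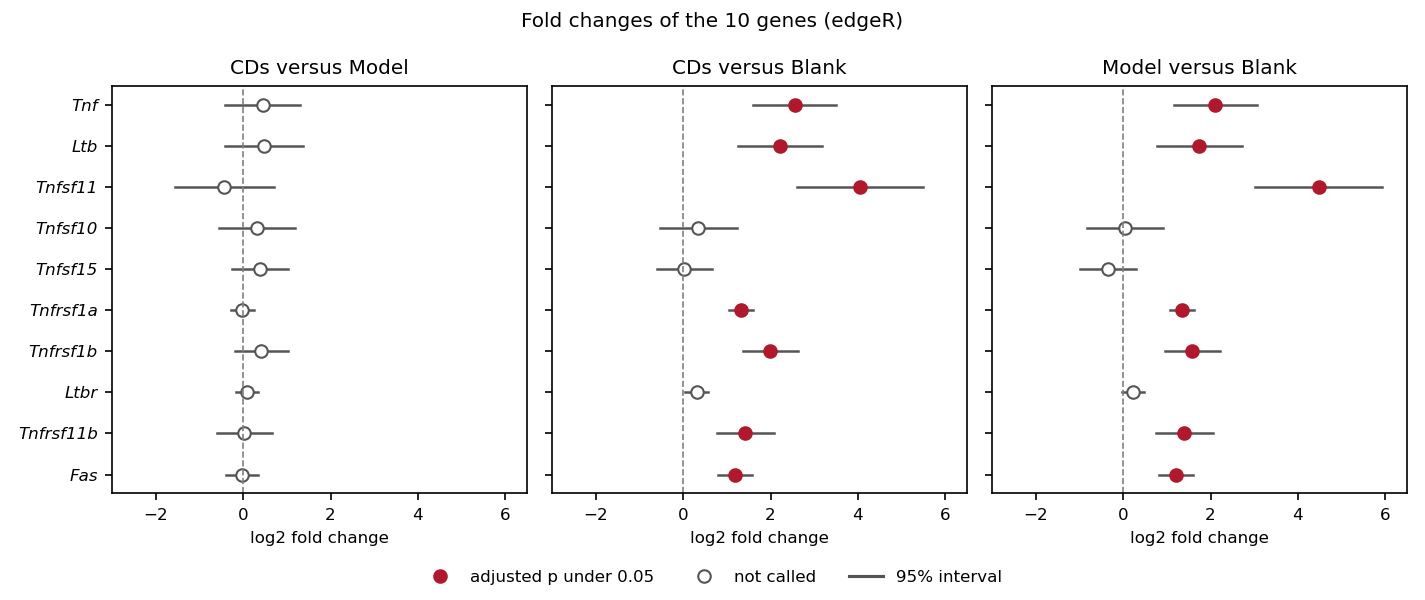
Log2 fold changes of the 10 genes (points) with 95% intervals (lines) in CDs versus Model, CDs versus Blank and Model versus Blank, ligands above receptors; filled points are called by edgeR. In CDs versus Model all 10 intervals include 0, and in each comparison with Blank 7 points are filled, Tnfsf11 being the farthest from 0 at 4.04 and 4.48.

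Per gene length, Tnfrsf1a, Ltbr and Tnfrsf1b had the highest levels of the 10 genes in all 3 groups. Deposited FPKM values, which are read counts scaled to gene length and to the library's counted reads, allow levels of different genes to be set side by side within a group. In CDs the order began with Tnfrsf1a at 74.6 ± 8.87 FPKM, whose range lay above that of Tnfrsf1b at 42.5 ± 17.2 FPKM, and Ltbr at 39.6 ± 5.18 FPKM overlapped Tnfrsf1b (SD, n = 3). From Fas at 12.9 FPKM through Tnf, Tnfsf10, Ltb and Tnfrsf11b to Tnfsf11 at 6.38 FPKM, neighbours in the order overlapped. Tnfsf15 followed alone at 1.26 FPKM. In Model the order began with Tnfrsf1a at 74.4 ± 12.0 FPKM, Ltbr at 36.8 FPKM and Tnfrsf1b at 31.0 FPKM, with no overlap between them. Fas at 13.0 FPKM, Tnfsf11, Tnfsf10, Tnf, Tnfrsf11b and Ltb at 5.87 FPKM then overlapped as neighbours, and Tnfsf15 was last at 0.958 FPKM. In Blank, Ltbr at 30.4 FPKM and Tnfrsf1a at 28.0 FPKM led and overlapped each other. Tnfrsf1b at 9.98 FPKM, Tnfsf10 at 7.10 FPKM and Fas at 5.36 FPKM overlapped as neighbours, Tnfrsf11b, Ltb, Tnf and Tnfsf15 lay between 2.34 and 1.18 FPKM, and Tnfsf11 was last at 0.353 FPKM. Tnfsf11 was thus the lowest of the 10 in Blank, and in both DSS-treated groups it lay among the overlapping genes between Fas and Tnfsf15.

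The balance between members of a pair was read from the ratio of their FPKM values within a library, which does not depend on scaling between libraries. The ratio of Tnfsf11 to its decoy receptor Tnfrsf11b was 1.27, 0.972 and 0.460 in CDs, 1.16, 1.74 and 0.954 in Model and 0.186, 0.119 and 0.138 in Blank. All 6 DSS-treated libraries were above all Blank libraries. Log2 ratios, here and in the next paragraph, were taken after 0.1 FPKM was added to both genes. They thus differ from the log2 of the printed ratios and are not fully free of scaling. The mean log2 ratio was 2.77 higher in Model than in Blank (two-sided exact permutation test, p = 0.1, the smallest that 3 against 3 allows). That difference ranged from 1.58 to 3.06 with other added constants or single libraries left out. The mean was 0.57 lower in CDs than in Model (a difference of -0.57, exact permutation p = 0.5).

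The ratio of Tnfrsf1b to Tnfrsf1a was 0.749, 0.455 and 0.473 in CDs, 0.477, 0.364 and 0.426 in Model and 0.461, 0.289 and 0.306 in Blank. CDs 1 was the highest and Blank 1 was above the other Blank libraries. Both differences of the mean log2 ratio, 0.37 for CDs versus Model and 0.28 for Model versus Blank, had an exact permutation p of 0.3. The ratio of Tnf to Tnfrsf1b lay at 0.240, 0.252 and 0.229 in CDs, 0.293, 0.230 and 0.187 in Model and 0.200, 0.130 and 0.127 in Blank. This ratio was almost the same in the 3 CDs libraries, although both genes were highest in CDs 1. The mean log2 ratio differed by 0.04 between CDs and Model (exact permutation p = 0.9) and by 0.57 between Model and Blank (exact permutation p = 0.2).

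**Figure D3:**
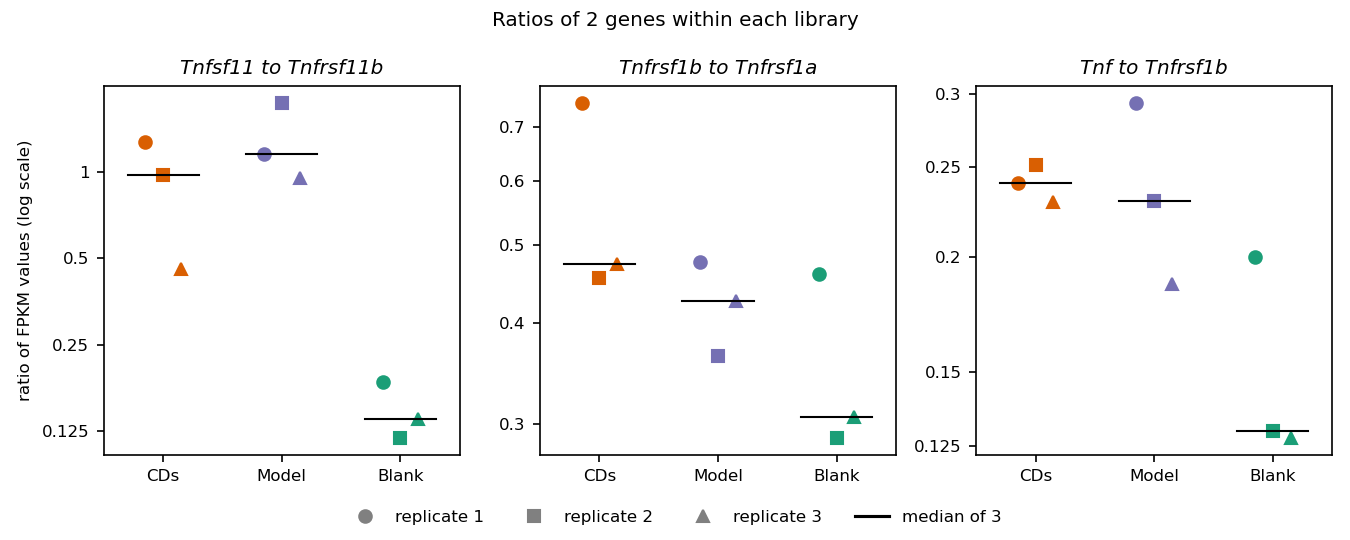
Ratio of deposited FPKM values of 2 genes within each library (log axes), for CDs, Model and Blank; symbols mark replicates and bars the median of 3 libraries. The ratio of Tnfsf11 to Tnfrsf11b lies between 0.460 and 1.74 in the 6 DSS-treated libraries and between 0.119 and 0.186 in Blank.

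CDs versus Model addresses whether carbon dots given with DSS changed these transcripts relative to DSS alone. No difference was detected for any of the 10 genes: edgeR called 0 of 10, 0 had an unadjusted p under 0.05, and DESeq2 and limma also called 0 of 10. Among all 14921 genes edgeR called 0%, 788 had an unadjusted p under 0.05, and DESeq2 called 50. The CDs and Model libraries overlapped for all 10 genes; over all genes tested the groups did not overlap for 7.99%. The median log2 fold change was 0.20 for the 10 genes and 0.02 for all genes tested.

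The intervals show what size of difference remains possible. They were narrow for 3 receptors: Tnfrsf1a had a log2 fold change of -0.02 ± 0.12, with a 95% interval of -0.29 to 0.25, Ltbr one of 0.08 ± 0.11 (-0.17 to 0.33) and Fas one of -0.03 ± 0.17 (-0.40 to 0.35). For these 3 genes, and for Tnfrsf11b below, a 2-fold change in either direction lies outside the interval. They were wide for the ligands: Tnf had 0.44 ± 0.38 (-0.42 to 1.30), Ltb 0.47 ± 0.39 (-0.42 to 1.36), Tnfsf11 -0.43 ± 0.50 (-1.56 to 0.70), Tnfsf10 0.31 ± 0.38 (-0.56 to 1.18) and Tnfsf15 0.38 ± 0.28 (-0.26 to 1.02). Tnfrsf1b had 0.41 ± 0.27 (-0.19 to 1.02) and Tnfrsf11b 0.03 ± 0.28 (-0.60 to 0.65). Adjusted p was between 0.936 and 0.994 for all 10 genes (edgeR).

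Single libraries set several of these values. CDs 1 was the highest of the 6 DSS-treated libraries for Tnf, Ltb, Tnfrsf1b and Tnfrsf11b, and without it the log2 fold change was 0.12 for Tnf, -0.07 for Ltb, 0.09 for Tnfrsf1b and -0.16 for Tnfrsf11b. CDs 1 also had the highest summed level of monocyte and macrophage markers, 871 CPM against 592 to 614 CPM in the other CDs libraries. The same held for T cell markers, 112 CPM against 49.1 to 57.0 CPM, and B cell markers, 341 CPM against 107 to 135 CPM. In Model these 3 sums were 536 to 779, 45.3 to 60.9 and 103 to 160 CPM. Model 3, the lowest of the 6 for Tnf, had the 779 CPM of macrophage markers. Neutrophil markers summed to 898 CPM in CDs 1, against 316 to 368 CPM in the other CDs libraries. Model 2 was the highest of the 6 for Tnfrsf1a, Tnfsf11 and Fas and the lowest for Tnfrsf1b, Tnfsf10 and Tnfsf15. Model 2 also had the highest summed neutrophil markers, 2130 CPM against 225 to 442 CPM in the other Model libraries, and the highest fibroblast and stroma markers, 11212 CPM against 4930 to 8408 CPM. The part of these markers in the values of the 10 genes was not tested.

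CDs versus Blank gave the same 7 genes as called higher, 0 lower and 3 not called, beside 21.8% of all genes called higher and 13.8% lower (35.6% either way). The CDs libraries were all above Blank for 8 of the 10 genes, beside 28.2% of all genes tested. This comparison shares its Blank libraries with Model versus Blank and its CDs libraries with CDs versus Model. The log2 fold change was 2.55 ± 0.42 for Tnf (edgeR adjusted p = 0.00249), 2.22 ± 0.43 for Ltb (0.00499) and 4.04 ± 0.64 for Tnfsf11 (0.0021). Among the receptors it was 1.33 ± 0.12 for Tnfrsf1a (3.22e-04), 1.99 ± 0.28 for Tnfrsf1b (0.0013), 1.42 ± 0.29 for Tnfrsf11b (0.00631) and 1.19 ± 0.17 for Fas (0.00141). Tnfsf10 was at 0.35 ± 0.39 (0.500) and Tnfsf15 at 0.02 ± 0.28 (0.953). Without Blank 2 and Blank 3, 1 of the 10 was called, Tnfrsf1a (log2 fold change 1.22, edgeR adjusted p = 0.0407).

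In tissue made of many cell types, fewer cells of a type and less RNA per cell cannot be told apart. Markers of immune and stromal cells moved with the 7 genes. Between Model and Blank 7 of 7 monocyte and macrophage markers rose, with summed levels of 536 to 779 CPM in Model and 134 to 182 CPM in Blank. All 6 neutrophil markers rose (225 to 2130 CPM in Model, 6.05 to 8.23 CPM in Blank), as did 6 of 6 fibroblast and stroma markers (4930 to 11212 CPM in Model, 1722 to 1965 CPM in Blank) and 3 of 3 endothelial markers (267 to 363 CPM in Model, 124 to 133 CPM in Blank). Of the lymphocyte markers, 1 of 5 T cell markers rose (45.3 to 60.9 CPM in Model, 13.2 to 35.6 CPM in Blank) and 3 of 5 B cell markers (103 to 160 CPM in Model, 35.1 to 84.4 CPM in Blank). Of 8 epithelial markers 2 fell and 0 rose. These counts stand beside 24.5% of all genes called higher and 19.6% called lower, and the 1 of 5 T cell markers called higher and the 2 of 8 epithelial markers called lower are near these shares. None of these markers was at 0 reads in all libraries of a group. Within Blank, Blank 1 had the highest value for 9 of the 10 genes, all but Tnfsf15, and the highest macrophage, T cell and B cell sums (182, 35.6 and 84.4 CPM). The part of cell composition in the fold changes of the 10 genes was not tested.

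The rest of the superfamily was followed in lists that leave out the 10 genes. Of 11 tested other ligands 7 rose and 1 fell in Model versus Blank (median log2 fold change 1.40), and of 22 tested other receptors 7 rose and 1 fell (median 0.72), beside 24.5% of all genes called higher and 19.6% lower. Either way 8 of the 11 ligands and 8 of the 22 receptors were called, against 44.1% of all genes. Counted in both directions, the receptors were thus not called more often than genes at large. Called higher they were at 31.8%, against 24.5% of all genes. The ligands called higher were Tnfsf14, Tnfsf13b, Tnfsf12, Lta, Tnfsf8, Tnfsf9 and Eda. Tnfsf14, or LIGHT, a second ligand of Ltbr, was at 8.38, 4.42 and 4.19 CPM in CDs, 3.92, 5.32 and 5.90 CPM in Model and 0.450, 0.755 and 0.295 CPM in Blank. Its DSS-treated and Blank libraries did not overlap, and its log2 fold change in Model versus Blank was 3.31 ± 0.42 (edgeR adjusted p = 6.30e-04). Tnfsf13b, the B cell survival factor BAFF, was higher in Model by 1.22 ± 0.17 on the log2 scale (edgeR adjusted p = 9.30e-04) and Tnfsf12, or TWEAK, by 1.03 ± 0.17 (edgeR adjusted p = 0.00188). The ligand that fell was Tnfsf13, or APRIL, at -1.22 ± 0.44 on the log2 scale (edgeR adjusted p = 0.0478), named after its values were seen and not called with any single Blank library, Model 2, Model 3, CDs 2 or CDs 3 left out (adjusted p = 0.0505 to 0.152), with the replicate number as a block (adjusted p = 0.0807) or with no filter on low counts (adjusted p = 0.0507). Tnfsf12 and Tnfsf13 both overlap the read-through gene Tnfsfm13, which is in the table too (overlaps are from GENCODE M21), so their counts are uncertain. Leaving out Blank 2, Blank 3, Model 2 or Model 3 left 5 ligands called, all higher, and leaving out Blank 2 and Blank 3 together left 2.

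Among the other receptors, Tnfrsf9, the T cell costimulatory receptor 4-1BB, changed most, with 9.72, 4.42 and 4.85 CPM in CDs, 6.97, 21.7 and 10.5 CPM in Model and 0.836, 0.343 and 0.738 CPM in Blank. Its log2 fold change in Model versus Blank was 4.34 ± 0.58 (edgeR adjusted p = 7.39e-04); the gene overlaps Camta1 on the other strand. Relt rose by 2.60 ± 0.40 on the log2 scale (edgeR adjusted p = 0.00142) and Ngfr, the low-affinity neurotrophin receptor, by 1.18 ± 0.19 (edgeR adjusted p = 0.00189). Cd40, Tnfrsf4, Tnfrsf12a and Tnfrsf26 were the remaining receptors called higher, with log2 fold changes of 1.69, 2.18, 1.59 and 2.51; Tnfrsf26 has close paralogs in Tnfrsf22 and Tnfrsf23, which makes its count uncertain. Without Blank 2 and Blank 3 together 1 of the 22 receptors was called. The receptor that fell was Tnfrsf11a, which encodes RANK, the signalling receptor of the Tnfsf11 product, named after its values were seen. Tnfrsf11a was at 71.1, 106 and 134 CPM in CDs, 112, 60.6 and 68.2 CPM in Model and 176, 148 and 140 CPM in Blank. Every DSS-treated library was below every Blank library, and the log2 fold change in Model versus Blank was -0.94 ± 0.27 (edgeR adjusted p = 0.0229). Tnfrsf11a was not called when Blank 1, Blank 2, Model 2 or Model 3 was left out (log2 fold change -0.97 to -0.78, adjusted p = 0.0518 to 0.0836). It was not called without Blank 2 and Blank 3 together either (log2 fold change -1.13). In CDs versus Blank it was not called (log2 fold change -0.57 ± 0.27, edgeR adjusted p = 0.128). With all libraries kept, in Model versus Blank, Tnfsf11 rose, its decoy receptor gene Tnfrsf11b rose by less, and its signalling receptor gene Tnfrsf11a fell.

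**Figure D4:**
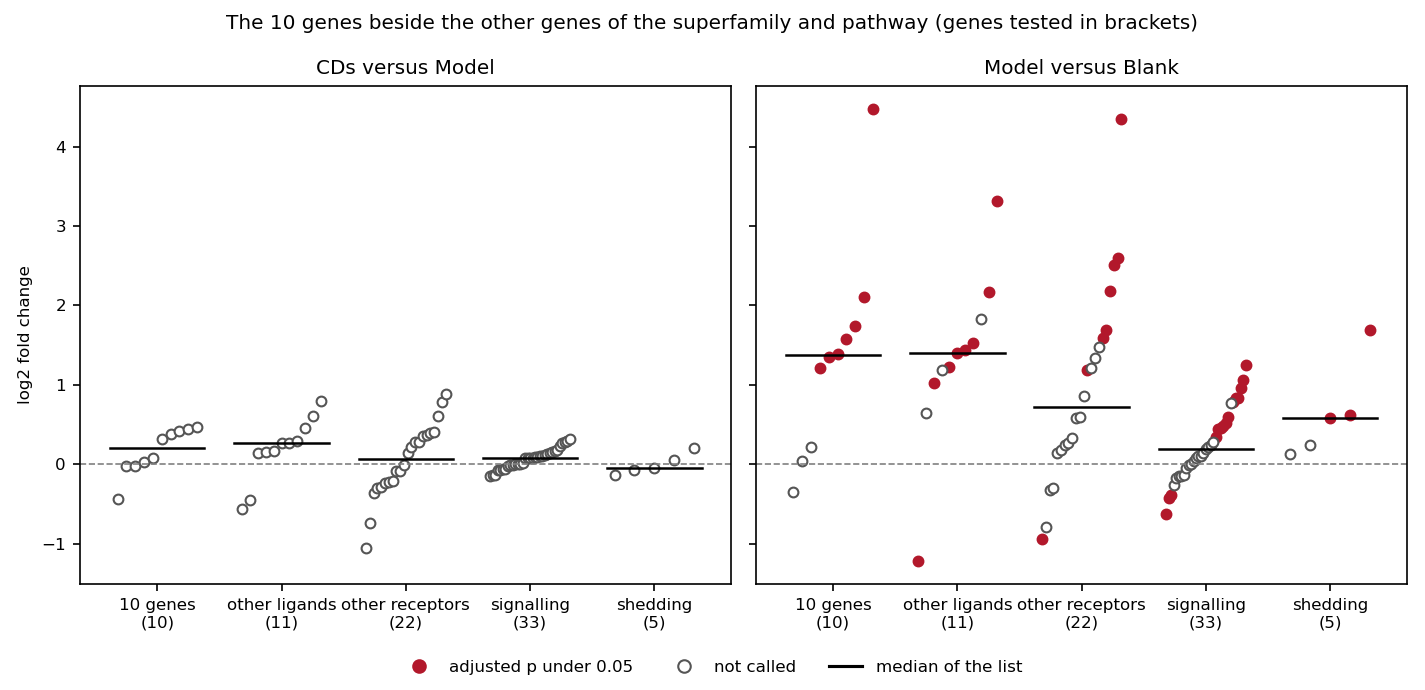
Log2 fold changes of single genes (points, sorted within each list) for the 10 genes, other superfamily ligands, other receptors, TNF receptor signalling genes and shedding genes, in CDs versus Model and Model versus Blank; bars are list medians and filled points are called by edgeR. In Model versus Blank the medians are 1.37, 1.40, 0.72, 0.19 and 0.59, and in CDs versus Model no point is filled.

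Downstream of the receptors, changes were smaller. Of 33 signalling genes 12 rose and 3 fell in Model versus Blank, with a median log2 fold change of 0.19. Among all genes 24.5% were called higher and 19.6% lower. Either way 15 of the 33 were called, near the 44.1% of all genes, so the count sets this list little apart. The 3 with the smallest p were Map3k14, or NIK, the kinase that starts the non-canonical NF-kB pathway (1.25 ± 0.20, edgeR adjusted p = 0.00165), Nfkb2, an NF-kB subunit gene of that pathway (0.97 ± 0.17, edgeR adjusted p = 0.0029), and Traf5, an adaptor (0.83 ± 0.15, edgeR adjusted p = 0.00322). Nfkbia and Tnfaip3, which restrain NF-kB signalling, were called higher with log2 fold changes of 1.06 and 0.78, while Tnip1 (-0.18), Cyld (0.10) and Otulin (0.11), which restrain it too, were not called. Ripk1 (0.34) and Ripk3 (0.83), kinases of cell death signalling, were called higher. The 3 that fell were Tradd (-0.62), an adaptor of Tnfrsf1a, Fadd (-0.42), an adaptor of death receptors, and Ikbkg (-0.39), the regulatory subunit of the IKK complex. Genes of this paragraph other than the first 3 were named after their values were seen. Nfkb2, Ripk1, Ikbkg and Otulin overlap other genes of the table. Without Blank 2 the count was 9 higher and 0 lower, and without Blank 2 and Blank 3 it was 0.

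Of 5 genes of ligand and receptor shedding 3 rose in Model versus Blank, beside 24.5% of all genes, and 1 of the 5, Timp3, was called without Blank 2 and Blank 3. Timp3, the tissue inhibitor of the TNF-releasing protease, rose by 1.68 ± 0.20 on the log2 scale (edgeR adjusted p = 5.23e-04), with means of 297 CPM in CDs, 287 CPM in Model and 89.2 CPM in Blank. Adam17, that protease, rose by 0.59 ± 0.12 (edgeR adjusted p = 0.00504; 0.45 with an adjusted p of 0.148 without Blank 2 and Blank 3), and Rhbdf2, a partner protein that helps Adam17 mature, by 0.62 ± 0.20 (edgeR adjusted p = 0.0324). Rhbdf2 was not called when Blank 2, Blank 3, Model 2 or Model 3 was left out (adjusted p = 0.0677 to 0.111). Timp3 overlaps Syn3 and Adam17 overlaps Iah1.

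In CDs versus Model 0 genes of the 4 lists were called by edgeR, with medians of 0.27 for the other ligands, 0.07 for the other receptors, 0.08 for signalling and -0.05 for shedding. The smallest p of each list belonged to Tnfsf13b (0.29 ± 0.17), Tnfrsf19 (0.79 ± 0.30), Sharpin (0.27 ± 0.10) and Rhbdf2 (0.20 ± 0.20), with adjusted p of 0.936, 0.936, 0.927 and 0.936. Sharpin, a subunit of the linear ubiquitin ligase that acts at Tnfrsf1a, was at 37.1, 37.1 and 37.2 CPM in CDs, 31.1, 30.9 and 30.4 CPM in Model and 32.6, 27.3 and 27.7 CPM in Blank. Its CDs libraries did not overlap Model, a property shared by 7.99% of all genes tested.

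By the shape of the values over the 9 libraries, the genes most like Tnf were Cd200r4, Gpr141, Itgb2, Rasgrp4 and Pilrb2, out of 14823 genes outside the lists. Likeness was the root mean square difference of log2 CPM centred on each gene's mean, and it was 0.231 for Cd200r4 and 0.307 to 0.323 for the other 4. Their log2 fold changes in Model versus Blank were 2.34, 2.58, 2.20, 2.05 and 2.20, against 2.11 for Tnf. The genes most like Tnfsf11 were Fpr2, Cxcl13 and Adamts4, with differences of 0.326, 0.331 and 0.345 and log2 fold changes of 4.84, 4.76 and 4.91, against 4.48 for Tnfsf11. These are descriptions over libraries that mostly separate by DSS treatment, and genes chosen this way have similar fold changes by construction.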

How the data were processed

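Per the labels' protocols, total RNA of mouse colon was isolated with Trizol and poly-A RNA was fragmented, copied with random primers and amplified by PCR. The protocol names no strand marking and the sources used here give no strand setting for the counts, so genes overlapping others are uncertain. The tools named in the submitters' processing notes are HTSeq 0.9.1, HISAT2 2.1.0 and fastp 0.22.0. The authors deposited raw read counts and FPKM values per gene and library, per the file headers. Each deposited FPKM equalled count over gene length and library total, to a relative tolerance of 1e-06. No genome build is named in the sources used here. Since 2.29% of genes had the same start and end in GENCODE release M21, gene coordinates are those of the deposited table with no build assigned.

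Counts of all 9 libraries were fitted once with edgeR 4.0.16 in R 4.3.3 (quasi-likelihood F test, 1 coefficient per group, expression filter, TMM scaling). P-values are two-sided and Benjamini-Hochberg adjusted over 14921 genes, with called meaning under 0.05. The SE is the fold change over the square root of F, and 95% intervals use it with 8.957 degrees of freedom. Ratios used log2(FPKM + 0.1). The test was checked on simulated data. Total counts of 13868864 to 19940300 reads set the precision, and limits from counts cover counting error only.

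The 10 genes, the gene lists and the tests were chosen with earlier results of these data known. Genes named by rule were the 10 and the genes most like Tnf and Tnfsf11. From each list the rule also took the 3 genes of smallest p for Model against Blank and the 1 for CDs against Model. Other genes of the lists, such as Fasl, Cd40 and Tnfsf8, were outside this rule and named with their values known. Promoter windows came from RefSeq (GRCm38.p6), matched by symbol for 9 of 10 genes. In GENCODE M21, Ltb and Fas each overlap 1 small RNA gene, and none of the 10 overlaps another gene of the table. Other settings tried were a replicate block, fits of 6 libraries, RLE and upper quartile scaling, no filter, DESeq2 1.42.0, limma 3.58.1 on log2(FPKM + 0.1), other pseudocounts, and leaving out libraries.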

Additional observations from a re-analysis of the deposited data

How the results depend on the processing

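Of 18 alternative fits, 17 left 7 or 8 of the 10 genes called in Model versus Blank and in CDs versus Blank, and the fit without Blank 2 and Blank 3 left 2 and 1. Leaving out single libraries gave 7 called genes in Model versus Blank and 7 to 8 in CDs versus Blank. CDs versus Model had 0 in all 18. Over all genes the number called was 6574 in Model versus Blank, and 1536 without Blank 2 and Blank 3. It was 5309 in CDs versus Blank, 3398 without Blank 2 and 465 without Blank 2 and Blank 3. In CDs versus Model it was 0, but 50 with DESeq2 and 1241 without Model 1, Model 3 and CDs 1, where Model 2 stood alone. Some other receptors, in both directions, and a signalling gene were among the genes called in that fit. With 1 Model library it cannot measure the spread within Model. With the replicate number as a block, 0 of the 10 genes were called in CDs versus Model and 7 in each comparison with Blank. Deviations of same-numbered libraries correlated at -0.368 to 0.206, and those of differently numbered libraries at -0.348 to 0.472. With so few libraries these values cannot exclude pairing. The numbers were not taken as pairs because the labels do not say that they are.

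Signs turned only for values that were not called. In CDs versus Model the log2 fold change of Tnfrsf1a was 0.0088 and that of Fas 0.0069 with limma, that of Tnfrsf11b was -0.0084 with RLE scaling, -0.0078 with DESeq2 and -0.37 without the libraries with pancreatic transcripts, and that of Ltb was -0.29 in the last. For Tnfsf10 it was -0.59 in Model versus Blank without the libraries with pancreatic transcripts, and without Blank 2 and Blank 3 it was -0.72 in Model versus Blank and -0.41 in CDs versus Blank. With single libraries left out, values in CDs versus Model ranged from -0.11 to 0.072 for Tnfrsf1a, -0.069 to 0.69 for Ltb, -0.042 to 0.16 for Ltbr, -1.01 to 0.044 for Tnfsf11, -0.24 to 0.21 for Tnfrsf11b, -0.095 to 0.11 for Fas and -0.11 to 0.21 for the log2 ratio of Tnf to Tnfrsf1b. Tnfsf10 ranged from -0.20 to 0.66 in Model versus Blank and Tnfsf15 from -0.079 to 0.13 in CDs versus Blank. The causes were not tested. With 3 libraries a group no permutation p can pass 0.05, and the lowest transcripts, such as Tnfsf11 in Blank, rest on few reads.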
